A study of Mus musculus with 6 samples.

Results

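Chemokines are small secreted or membrane-anchored proteins, and chemokine receptors are the receptors through which leukocytes read them. The genes described here are those whose name on the array begins with Ccl, Ccr, Cxcl, Cxcr, Xcl, Xcr, Cx3cl or Cx3cr followed by a digit. The array files held 51 such genes, 35 ligands and 16 receptors, among 27951 gene names. Each gene was represented by its brightest probe. A gene counted as measured when 3 or more of the 6 arrays read that probe well above background, whatever the genotype. This left 43 of the 51, 31 ligands and 12 receptors, among 20423 genes measured in all.

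The lungs were taken whole from male mice of 8 weeks that had received no treatment. Of the 6 mice, 3 were wild type and 3 were Nogo-A/B knockouts, which lack both long proteins of the reticulon gene Rtn4. Strain, allele and the way in which the deletion was made are not given in the sources used here. Each lung was hybridised in 1 colour to its own array of 60-mer probes, and the design text calls the 3 lungs of a group individual biological replicates. The labels number the wild types 11, 12 and 13, and the knockouts 1, 11 and 12. The title of the series asks about the role of Nogo in asthma, and these lungs are its untreated comparison.

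Chemokine receptors are G protein-coupled receptors, and a gradient of ligand directs the movement of the cell that carries them. Many ligands share a receptor and several receptors take many ligands. In the lung, epithelium and macrophages make ligands that draw neutrophils, monocytes and eosinophils during inflammation. Other ligands are made without any stimulus and guide lymphocytes and dendritic cells to lymphoid tissue.

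Levels are log2 signals relative to the 75th percentile of their own array, so that 0 is that percentile, and a level was never set against that of another gene. The 75th percentile itself lay between 1086 and 2343 signal units, and 68.9% to 78.0% of probes on an array were well above background. The Rtn4 probe for AK047982 was detected well above background on 3 wild-type arrays and on 0 of the 3 knockout arrays. A second Rtn4 probe (NM_194054) read 1.69, 1.62 and 2.36 on wild types 11, 12 and 13, and 1.099, -0.71 and -1.79 on knockouts 1, 11 and 12. Knockout 1 was therefore closest to the wild type for that probe. The labelled tissue was checked on 9 lung epithelial markers, among them Sftpc and Scgb1a1, and every array read all 9 of them well above background. Scanning took place on 2 days, per the file headers. Day 1 held wild type 13 and knockouts 1 and 11, day 2 held wild types 11 and 12 and knockout 12, and 11.2% of all genes differed between days at an adjusted p under 0.05. Since each day held only 1 array of 1 of the genotypes, within-day differences are given as values, and any p behind them assumes that the lone array varies like the others. Wild type 13 and knockout 1 shared slide 1, knockout 11 was on slide 2 and all of day 2 on slide 3.

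Of the 43 measured members, 40 were well above background on all 6 arrays and none was saturated on any. Ccr1l1, with 4 arrays, and Cxcl2 and Cxcl5, with 5 each, were the members just inside the detection rule. Ccl22, Ccr1 and Ccr4, with 2 arrays each, were just outside it. Ccl28, Ccr8 and Ccr10 were well above background on 1 array each, and Ccl1 and Cxcl11 on 0. Signal at a probe depends on its sequence, so a member below background has no measured level here and was not shown to be absent. For Ccl2, the probe was printed in 10 spots on every array, and the spots differed by an SD of only 0.05 to 0.10 on the log2 scale. Between the arrays of a group the SD of Ccl2 was larger, 0.60 in the wild type and 1.08 in the knockout. That spread holds slide and scan day as well as lung. The standard error of a group difference ran from 0.16 to 1.63 over the members, with a median of 0.33 against 0.26 over all genes measured.

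The comparison of knockout with wild-type lungs asks which of these genes differ at rest when Nogo-A and Nogo-B are missing. No member passed limma's test at an adjusted p under 0.05 (Benjamini-Hochberg over all 20423 genes), where the share of all genes passing was also 0%. The adjusted p by limma was 0.9998 for every member, and over the alternatives other than the within-day fits it ran from 0.661 to 0.99999. At an unadjusted p under 0.05 there were 4 members, against 0.935% of all genes: Cxcl4 and Cxcl7 were lower in the knockout (background 0.641% in that direction) and Cxcl9 and Ccl19 were higher (background 0.294%). Cxcl4 and Cxcl7 missed an unadjusted p under 0.05 by limma in 1 of 21 alternatives each, within day 1. Cxcl9 missed it in 12 of 21 and Ccl19 in 10 of 21. Leaving out wild type 12 made the count of members 2, and leaving out knockout 11 made it 7. Over all genes the count was 191 with all arrays, 112 without wild type 12 and 294 without knockout 11. The values of the groups did not overlap for 6 members, or 14.0%, against 3.98% of all genes. These 6 were Cxcl4 and Cxcl7, lower (background 1.59%), and Cxcl9, Ccl19, Ccl5 and Cxcr3, higher (background 2.39%). Of the 43 members, 19 had the higher mean in the knockout, or 44.2%, against 52.2% of all genes. The median difference, knockout minus wild type, was -0.06 over the 31 ligands, 0.11 over the 12 receptors and 0.01 over all genes, all on the log2 scale. Under 4 other scalings or normalizations 10 ligands in place of 13 had the higher mean. Whole lung was measured, so fewer cells of a type and less RNA per cell cannot be told apart in any of these values.

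**Figure D1:**
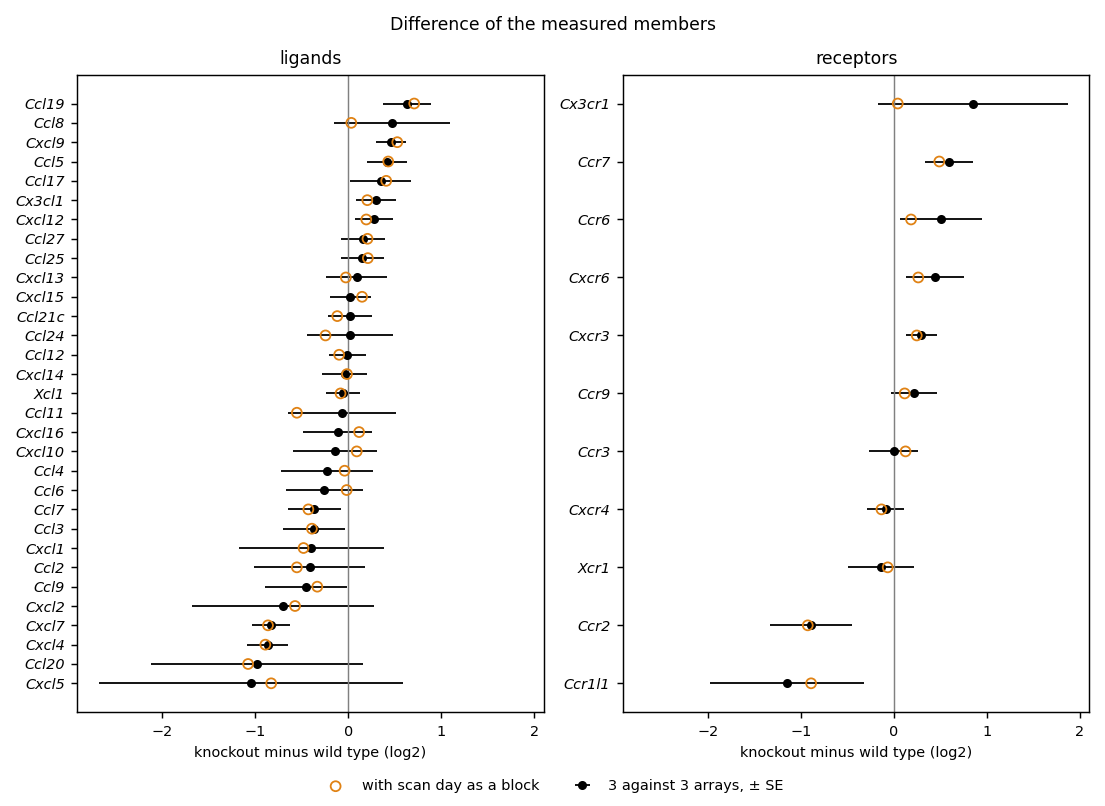
Log2 difference, knockout minus wild type, of 42 of the 43 measured members (ligands and receptors in separate panels), as filled points with the standard error from limma as a bar. Open circles give the difference with scan day as a block, the line at 0 marks equal group means, and no member passed the adjusted test. Cxcl4 and Cxcl7 lie furthest below 0 relative to their bars, and the long bars belong to Cxcl5, Ccl20, Cx3cr1 and Cxcl2.

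The clearest separation of the groups was in the platelet chemokines. Cxcl4 (Pf4, platelet factor 4) and Cxcl7 (Ppbp, the precursor of neutrophil-activating peptide 2) are stored in platelet alpha granules and made in megakaryocytes. Their probes lie at chr5:90744523-90744582 and chr5:90741218-90741277 on build mm7, 3245 bases apart. Cxcl4 read 4.54, 4.09 and 4.06 on wild types 11, 12 and 13, and 3.56, 3.43 and 3.10 on knockouts 1, 11 and 12. Every knockout was below every wild type. The knockout mean was lower by 0.86 on the log2 scale, or 1.82-fold (SE 0.22, n = 3 lungs a group, unadjusted p = 0.00725 by limma, not past the adjusted threshold). Cxcl7 read 4.31, 4.02 and 3.96 in the wild types and 3.36, 3.46 and 2.99 in the knockouts, again without overlap. Its knockout mean was 1.77-fold lower, a log2 difference of -0.83 (SE 0.20, unadjusted p = 0.00614 by limma). With scan day as a block the differences were -0.89 for Cxcl4 and -0.86 for Cxcl7. Within day 1 they were -0.56 and -0.55, and within day 2 they were -1.22 and -1.17. The direction held without each array in turn, with differences from -0.96 to -0.71 for Cxcl4 and from -0.92 to -0.69 for Cxcl7.

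The sequence upstream of these genes is shown because both lie side by side in a CXC cluster on chromosome 5, whose other members did not separate the groups. The 250 bases before the start of each gene are from RefSeq (GRCm38.p6), all on the plus strand: Cxcl7 at chr5:90768268-90768517, Cxcl4 at chr5:90772185-90772434, Cxcl1 at chr5:90890995-90891244 and Cxcl2 at chr5:90903649-90903898. Capitals mark TATAAA in Cxcl7 and a kappaB-type run in Cxcl1 and Cxcl2.
Cxcl7: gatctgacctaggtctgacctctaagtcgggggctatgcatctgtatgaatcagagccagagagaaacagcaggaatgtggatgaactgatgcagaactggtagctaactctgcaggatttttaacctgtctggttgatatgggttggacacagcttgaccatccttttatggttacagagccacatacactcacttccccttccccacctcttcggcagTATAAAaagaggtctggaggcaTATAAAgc
Cxcl4: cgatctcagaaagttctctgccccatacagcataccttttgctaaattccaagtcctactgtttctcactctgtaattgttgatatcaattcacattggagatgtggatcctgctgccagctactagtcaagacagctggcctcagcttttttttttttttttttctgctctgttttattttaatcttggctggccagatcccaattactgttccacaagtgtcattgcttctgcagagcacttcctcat
Cxcl1: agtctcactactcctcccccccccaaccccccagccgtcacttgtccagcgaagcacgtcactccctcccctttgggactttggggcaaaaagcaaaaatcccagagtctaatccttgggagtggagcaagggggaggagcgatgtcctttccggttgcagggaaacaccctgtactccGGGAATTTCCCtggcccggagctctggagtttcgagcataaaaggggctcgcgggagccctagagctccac
Cxcl2: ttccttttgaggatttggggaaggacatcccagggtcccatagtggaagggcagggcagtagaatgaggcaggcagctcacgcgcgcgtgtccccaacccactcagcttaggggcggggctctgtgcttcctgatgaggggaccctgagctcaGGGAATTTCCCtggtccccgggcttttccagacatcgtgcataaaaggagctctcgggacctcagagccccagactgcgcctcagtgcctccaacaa

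Both strands were searched for 3 motifs. The GATA-type motif was AGATAA or TGATAA and the TATA motif TATAAA. The third was a kappaB-type motif with free bases in its middle, given here by name. Cxcl7 held TATAAA in 2 places, the first starting 30 bases before the start of the gene, and neither of the other motifs. Cxcl4 held no match to any of the 3. In Cxcl1 and Cxcl2 the same run, GGGAATTTCCC, held the kappaB-type motif once on each strand, in overlapping positions, starting 71 and 97 bases before the start. Of 32851 promoters of the same length, 3.86% held the kappaB-type motif, 16.6% the GATA-type letters and 12.4% TATAAA. Among the 32 measured members with a promoter in the table the counts were 4, 8 and 12. These are matches of letters only.

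Platelet markers were lower on the same arrays. All 9 markers measured, each well above background on all 6 arrays, had a lower mean in the knockout, with a median difference of -0.74 and 0 of 9 past the adjusted threshold. Of these 9, 6 had an unadjusted p under 0.05 by limma, against 0.641% of all genes in that direction. The groups did not overlap for 5 of the 9, against 1.59% of all genes in that direction. The deviation of the list on an array, the median over markers of the level minus that marker's mean, was 0.21 to 0.56 in the wild types and -0.65 to -0.15 in the knockouts. Clec1b, a C-type lectin receptor of platelets, read 2.80, 2.45 and 2.31 in the wild types and 1.71, 1.82 and 1.54 in the knockouts, a difference of -0.83. Itga2b, the integrin alpha chain of the fibrinogen receptor, differed by -0.72 and Gp9, part of the von Willebrand factor receptor, by -0.97. Rgs18, a regulator of G protein signalling found in megakaryocytes and platelets, is not one of these 9 markers. It belongs to the 28 measured genes of chemokine receptor signalling, of which 9 had a higher and 19 a lower mean. Rgs18 differed by -1.04 with groups that did not overlap, and was the only 1 of the 28 at an unadjusted p under 0.05 by limma. What the amount of platelet RNA contributed to the values of Cxcl4 and Cxcl7 was not tested.

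**Figure D2:**
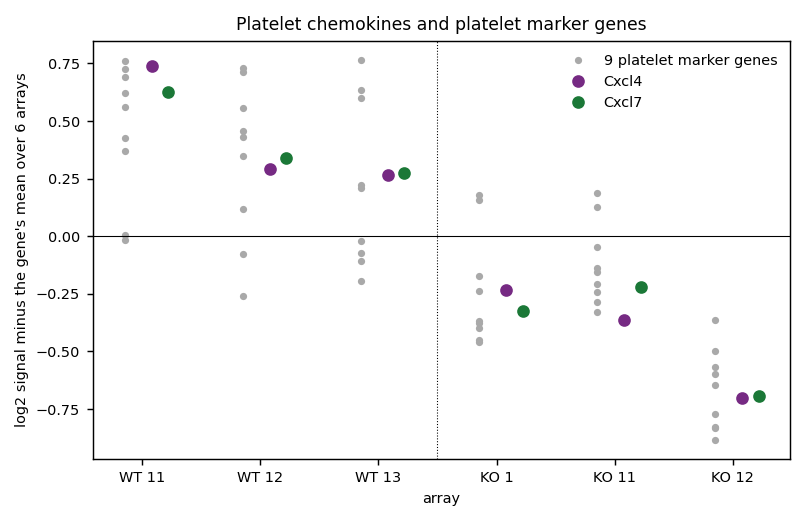
Level of Cxcl4 and Cxcl7 on each array, as the log2 deviation from the gene's mean over the 6 arrays, beside the 9 platelet markers in grey. Both chemokines and the markers' medians (0.21 to 0.56 in wild type, -0.65 to -0.15 in knockout) are higher on the 3 wild-type arrays.

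The other ligands that act on Cxcr1 and Cxcr2, the receptors of neutrophils, were set apart by a single lung. Cxcl1 and Cxcl2 are induced in epithelium and macrophages, and Cxcl5 is an epithelial ligand. Ccl20, an epithelial ligand of Ccr6, followed the same arrays. These 4 genes were chosen after their values were seen. Cxcl5 read -4.78, -3.80 and -3.36 in the wild types and -8.94, -2.61 and -3.53 on knockouts 1, 11 and 12. Knockout 1 lay 4.16 below the next lowest array and was not well above background there, while knockout 11 was the highest of all 6. Cxcl2 read -5.73, -5.33 and -4.41 in the wild types and -8.11, -4.87 and -4.59 in the knockouts. Knockout 1 was not well above background for Cxcl2 either, and the dimmest detected signal of that array was -6.94. The sizes of its gaps in Cxcl5 and Cxcl2 therefore rest on undetected values. Cxcl1 read -3.18, -3.44 and -2.63 against -5.12, -1.95 and -3.37. Ccl20 read -3.36, -3.29 and -1.36 against -6.10, -2.13 and -2.72. In all 4, knockout 1 was the lowest array, by 1.68 to 4.16 on the log2 scale, and the other knockouts lay among or above the wild types.

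Across the members, only these 4 had knockout 1 more than 1 log2 unit below all other arrays. Ccr1l1 was the only other member with an array set apart by that much, knockout 11. With all 3 knockouts the differences were -1.05 for Cxcl5, -0.70 for Cxcl2, -0.39 for Cxcl1 and -0.98 for Ccl20, with standard errors from 0.78 to 1.63. Without knockout 1 they were 0.91, 0.43, 0.42 and 0.24, so that the sign turned in each. Cxcl15 (lungkine), a ligand made by lung epithelium, lies between Cxcl4 and Cxcl1 in the same cluster. It read 4.74, 4.72 and 4.14 in the wild types and 4.61, 4.40 and 4.66 in the knockouts, a difference of 0.02 (SE 0.22). Over the cluster, 5 of 6 members had the lower mean in the knockout, with a median difference of -0.76. Among the 5 ligands of the neutrophil axis, 4 were lower, with a median of -0.70. All 5 were lower, with medians from -0.74 to -0.11, under the other scalings, since Cxcl15 turned to just below 0. The medians rest in part on knockout 1, including its undetected values of Cxcl5 and Cxcl2.

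**Figure D3:**
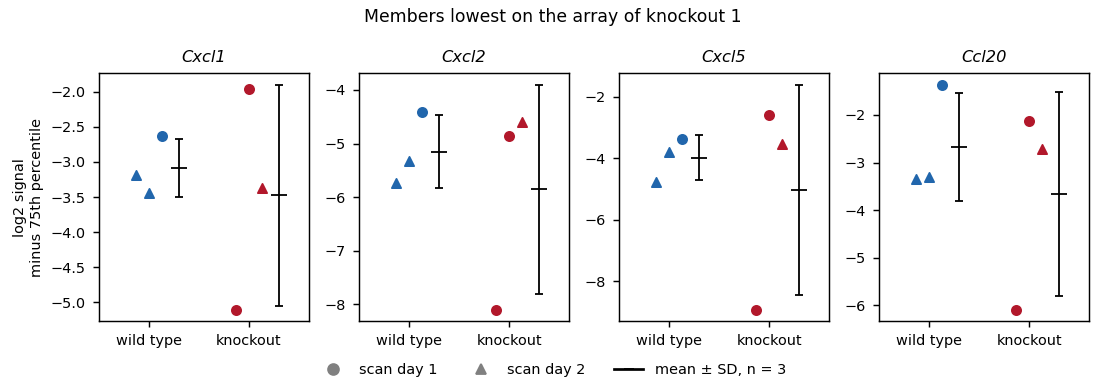
Log2 level, relative to the array's 75th percentile, of Cxcl1, Cxcl2, Cxcl5 and Ccl20 on each of the 6 arrays (circles for scan day 1, triangles for day 2), with the mean and SD of each group. Knockout 1 is the lowest point for each gene, 1.68 to 4.16 below the next array, and knockouts 11 and 12 lie among or above the wild types. For Cxcl2 and Cxcl5 knockout 1 was not well above background.

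The receptors for these ligands carry older names on the array. Il8rb (Cxcr2) read -0.35, -0.75 and -1.51 in the wild types and -2.87, 0.42 and -3.33 in the knockouts, a difference of -1.06. Il8ra (Cxcr1) differed by -1.05 (SE 0.85). Knockout 11 had the highest level of Il8rb and knockouts 1 and 12 the lowest. All 16 measured neutrophil markers had a lower mean in the knockout, with a median difference of -1.45. Limma left 0 of 16 past the adjusted threshold and 3 at an unadjusted p under 0.05, against 0.641% of all genes in that direction. The list deviation was -0.37 to 1.61 in the wild types, -1.22 on knockout 1, 0.36 on knockout 11 and -1.25 on knockout 12. Its median difference was 0.15 within day 1 and -2.59 within day 2. The part of these cells in the values of Il8rb and of the ligands was not tested.

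The receptor and the ligands of the monocyte axis all had lower means in the knockout, although the difference of Ccl12 was only -0.01. Ccr2 is the receptor by which inflammatory monocytes leave the bone marrow, and Ccl2, Ccl7 and Ccl12 are its ligands in the mouse. Ccr2 read 0.20, 0.74 and -0.22 in the wild types and -0.89, 0.21 and -1.26 in the knockouts. Knockout 11 lay within the wild types, so the groups overlapped. The difference was -0.89 (SE 0.44, unadjusted p = 0.0907 by limma). Day 1 alone gave -0.12 and day 2 alone -1.73, and without knockout 12 the difference was -0.58. A second Ccr2 probe, for AK162705, differed by -1.63, but its wild type 13 (-3.49) lay with the knockouts (-3.97, -4.03 and -3.48) and apart from wild types 11 and 12 (-1.75 and -1.33).

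Ccl2 read -1.63, -2.62 and -2.72 in the wild types and -2.97, -1.56 and -3.68 in the knockouts, a difference of -0.41 (SE 0.59). Knockout 11 was the highest array and knockout 12 the lowest, so the 2 extremes came from 1 group. Ccl7 read -3.51, -3.92 and -3.79 against -4.36, -3.54 and -4.42, a difference of -0.36 (SE 0.29). Ccl12 differed by -0.01 (SE 0.20). All 3 ligands thus had a lower mean in the knockout, but Ccl12 by much less than its standard error. None had an unadjusted p under 0.05 by limma. Within day 1 the differences were 0.46 for Ccl2, -0.16 for Ccl7 and -0.11 for Ccl12. Within day 2 they were -1.56, -0.70 and -0.09, so the sign of Ccl2 changed between days. The measured monocyte markers had a median difference of -0.13, with 6 of 9 lower, and 8 of 9 under each other scaling. Within day 1 the median was 0.49 and within day 2 it was -0.19.

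The ligands of Ccr1 and related receptors, made by macrophages and lymphocytes, went both ways: 4 of 5 had a lower mean and Ccl5 a higher one. Ccl5 (RANTES), a product of T cells and natural killer cells, read 2.93, 2.88 and 2.47 in the wild types and 3.18, 3.42 and 2.93 in the knockouts. The groups did not overlap, but knockout 12 (2.933) and wild type 11 (2.928) were separated by less than 0.01. The difference was 0.42 (SE 0.22, unadjusted p = 0.101 by limma), with 0.83 within day 1 and 0.03 within day 2, and 0.27 without wild type 13. A second Ccl5 probe differed by 0.20 with groups that overlapped. The macrophage ligands Ccl3 (-0.37, SE 0.33), Ccl4 (-0.23, SE 0.50), Ccl6 (-0.26, SE 0.41) and Ccl9 (-0.45, SE 0.44) all differed by about 1 standard error or less. Without knockout 1 the difference was 0.10 for Ccl6 and -0.05 for Ccl9.

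Ccr1, a receptor of neutrophils, monocytes and macrophages, was not tested because it failed the detection rule. It was well above background on wild types 11 and 12 (-4.25 and -4.76) and on no other array. Wild type 13 (-7.36) was not detected and lay below knockouts 11 (-6.43) and 12 (-7.10), so the groups overlapped. The means, with the undetected values, were -5.46 in the wild type and -7.45 in the knockout. With the dimmest detected signal of each knockout array as a floor, the knockout mean was 2.14-fold below the wild-type mean. That value is not a lower bound, since the wild-type mean holds the undetected value of wild type 13. Ccr1l1, a Ccr1-like receptor gene beside Ccr1 on chromosome 9, was well above background on 3 wild-type arrays and 1 knockout array. It read -5.81, -6.29 and -5.21 in the wild types and -6.78, -8.65 and -5.32 in the knockouts, with a difference of -1.15 (SE 0.83). Knockout 12 lay among the wild types. The difference was -2.50 within day 1 and 0.73 within day 2. It was -0.19 with normexp background correction, -0.12 with the authors' values, -0.28 without knockout 11 and -1.95 without knockout 12.

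Several members that attract lymphocytes had higher means in the knockout. Cxcl9, a ligand of Cxcr3 induced by interferon gamma, has its probe at chr5:92310412-92310471 (mm7). It read -3.76, -3.64 and -3.93 in the wild types and -3.36, -3.38 and -3.21 in the knockouts, without overlap. The difference was 0.46 (SE 0.16, unadjusted p = 0.0296 by limma), or 1.38-fold, with 0.56 within day 1 and 0.50 within day 2. It was 0.28 with normexp background correction and 0.30 with the authors' values, and its unadjusted p was 0.177 to 0.194 by limma under the 4 other scalings or normalizations. Cxcr3, the receptor of activated T cells and natural killer cells, read -2.16, -2.15 and -1.91 in the wild types and -1.87, -1.66 and -1.81 in the knockouts. Its groups did not overlap, although knockout 1 (-1.87) and wild type 13 (-1.91) lay 0.05 apart. The difference was 0.30 (SE 0.16, unadjusted p = 0.121 by limma), with 0.15 within day 1 and 0.34 within day 2. Cxcl10, the neighbour of Cxcl9 and a ligand of the same receptor, read -1.29, -1.87 and -2.89 in the wild types and -2.61, -1.76 and -2.10 in the knockouts. Its difference was -0.14 (SE 0.45), and its lowest and highest arrays were both wild type.

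Ccl19 and its receptor Ccr7 guide T cells and mature dendritic cells into lymph nodes and lymphoid aggregates. Ccl19 read 1.68, 1.62 and 0.91 in the wild types and 2.17, 2.07 and 1.86 in the knockouts, without overlap. The difference was 0.63 (SE 0.25, unadjusted p = 0.0471 by limma), or 1.55-fold. It was 1.21 within day 1 and 0.21 within day 2. Wild type 13 was the lowest array, and without it the difference was 0.39. A second Ccl19 probe read 0.26, 0.12 and 0.82 in the wild types and 1.64, 1.40 and 1.04 in the knockouts, a difference of 0.96, also without overlap. On that probe wild type 13 was the highest of its group. Ccl19 and Ccl21 exist in near-identical copies in the mouse genome, both were placed on unassigned sequence in mm7, and which copies the probes read is uncertain. Ccr7 (probe at chr11:99253592-99253652, mm7) read -1.74, -1.69 and -1.16 in the wild types and -0.56, -1.26 and -0.99 in the knockouts. Knockout 11 lay below wild type 13, so the groups overlapped. The difference was 0.59 (SE 0.26, unadjusted p = 0.0635 by limma), with 0.25 within day 1 and 0.72 within day 2.

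Ccl21c, the other ligand of Ccr7, differed by 0.02 (SE 0.24), so the ligands of this receptor did not share the size of the Ccl19 difference. Cxcl12, the stromal ligand of Cxcr4 that retains leukocytes in tissue and bone marrow, read 3.25, 3.50 and 3.40 in the wild types and 3.79, 3.86 and 3.34 in the knockouts. Knockouts 1 and 11 were above all wild types and knockout 12 was not. The difference was 0.28 (SE 0.20), 0.42 within day 1 and -0.04 within day 2, and a second probe gave -0.06. It was 0.18 without knockout 11 and 0.44 without knockout 12. Cxcr4 read -0.29, -0.69 and -0.34 against -0.31, -0.67 and -0.60, a difference of -0.09 (SE 0.20). Cxcl13, which attracts B cells through Cxcr5, differed by 0.09 (SE 0.33), and Blr1, the name of Cxcr5 on the array, by 0.38 (SE 0.30). All 4 measured ligands of the lymphoid axis had the higher mean in the knockout, with a median of 0.18, but 3 of 4 under each other scaling, where Ccl21c lay just below 0. Of the 4, only Ccl19 had an unadjusted p under 0.05 by limma.

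**Figure D4:**
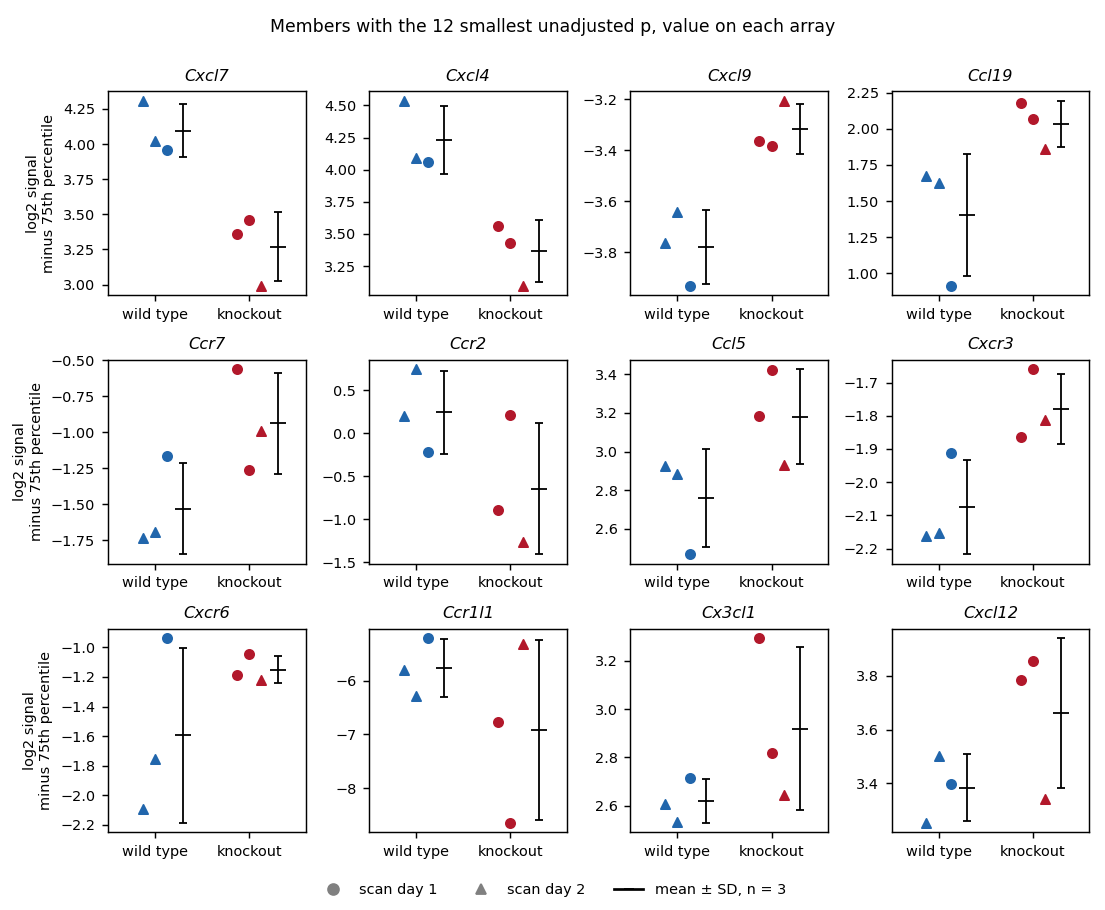
Log2 level, relative to the array's 75th percentile, of the 12 members with the smallest unadjusted p, one panel each, with a point for every array (wild type in blue, knockout in red, circles for scan day 1 and triangles for day 2) and the mean and SD of each group. The groups do not overlap in Cxcl7, Cxcl4, Cxcl9, Ccl19, Ccl5 and Cxcr3, and they overlap in the other 6.

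Most T, B and dendritic cell markers also had higher means in the knockout. Of 15 T cell markers, 12 were higher, with a median difference of 0.14, and of 12 B cell markers all 12 were higher, with a median of 0.40. Of 10 dendritic cell markers, 9 were higher, with a median of 0.17. Within day 1 the medians were 0.18 for T cells, 0.06 for B cells and 0.01 for dendritic cells, and within day 2 they were 0.24, 0.36 and 0.28. Of 10 natural killer cell markers, 6 were higher, with a median of 0.02, and 5 under each other scaling. Under the other scalings 11 of 15 T cell markers were higher, and the counts of B and dendritic cell markers were the same. No marker of these lists passed the adjusted threshold by limma. Only 1 T cell marker, Cd3d, had an unadjusted p under 0.05, against 0.935% of all genes. All 15 T cell markers, all 10 dendritic cell markers and 11 of 12 B cell markers were detected well above background on every array. The T cell list deviated by -0.17 to 0.01 in the wild types and -0.18 to 0.26 in the knockouts, and the B cell list by -0.55 to 0.22 and -0.02 to 0.56, so both overlapped. The dendritic cell list deviated by -0.14 to -0.04 in the wild types and by -0.10 to 0.26 in the knockouts. Cd3d, a chain of the T cell receptor complex, differed by 0.49 with groups that did not overlap. E430004N04Rik (Themis), a T cell signalling gene, differed by -0.56, also without overlap. Pax5, a transcription factor of B cells, differed by 1.14 with overlap. Its scan days did not overlap, and with day as a block the difference was 0.60. The part of these cells in the values of Ccl19, Ccr7, Cxcl9 and Cxcr3 was not tested.

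Fractalkine (Cx3cl1) and Cxcl16 are made as membrane-anchored ligands that can hold leukocytes as well as attract them. Cx3cl1 read 2.61, 2.53 and 2.72 in the wild types and 3.29, 2.82 and 2.64 in the knockouts. Knockout 12 lay within the wild types, and the difference was 0.30 (SE 0.22). Without knockout 1 it was 0.11. Cxcl16 had means of 1.84 ± 0.69 in the wild type and 1.73 ± 0.25 in the knockout (SD, n = 3), a difference of -0.11. Cxcr6, its receptor on resident T cells, read -2.09, -1.76 and -0.94 in the wild types and -1.19, -1.04 and -1.22 in the knockouts. The wild types were spread more widely than the knockouts (SD 0.59 against 0.09). The difference was 0.44 (SE 0.31), -0.18 within day 1 and 0.70 within day 2. It was 0.20 without wild type 11 and 0.77 without wild type 13.

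The ligands of eosinophils and type 2 lymphocytes, those most often discussed in asthma, all had groups that overlapped over the 6 arrays. Ccl11 (eotaxin) had a difference of -0.07 (SE 0.58), or -0.55 with scan day as a block. Ccl24 (eotaxin-2) differed by 0.02 (SE 0.46), or -0.24 with the block. Ccl8 differed by 0.47 (SE 0.63), but its scan days did not overlap and the block gave 0.03. Ccl17, a ligand of Ccr4, differed by 0.35 (SE 0.33), with -0.14 within day 1 and 0.96 within day 2. Ccr3, the eotaxin receptor, had means of -4.94 ± 0.11 in the wild type and -4.95 ± 0.46 in the knockout (SD, n = 3). The standard errors of Ccl11, Ccl24 and Ccl8 are above the median of 0.33 over the members. Ccl22, Ccl1, Ccr4 and Ccr8 were not measured by the detection rule.

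Among the mucosal ligands and receptors, Ccr6, a receptor of B cells and dendritic cells, differed by 0.51 (SE 0.44) and Ccr9 by 0.22 (SE 0.25). For Ccr6 the scan days did not overlap, and with day as a block the difference was 0.18. Ccl25, the ligand of Ccr9, differed by 0.15 (SE 0.23) and Ccl27 by 0.16 (SE 0.23). Xcl1 and Xcr1, a ligand of activated lymphocytes and its receptor on cross-presenting dendritic cells, differed by -0.06 (SE 0.18) and -0.14 (SE 0.35). Cxcl14, an epithelial ligand, differed by -0.04 (SE 0.24). None of these 7 had an unadjusted p under 0.05.

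For a few members the scan day separated the arrays more than the genotype did. In the fit with genotype and scan day as terms, 2 members passed an adjusted p under 0.05 for day (limma, Benjamini-Hochberg), or 4.65%, a smaller share than the 11.2% over all genes. The days did not overlap for 8 members, or 18.6%, against 39.6% of all genes. Ccl11 and Cx3cr1 passed, and they are named here after their values were seen. Ccl11 read -1.61, -2.28 and -1.95 on the day 1 arrays (wild type 13, knockouts 1 and 11) and -3.20, -2.85 and -3.62 on the day 2 arrays (wild types 11 and 12, knockout 12). The difference, day 2 minus day 1, was -1.46 (SE 0.18, adjusted p = 0.0101 by limma, 0.00972 to 0.0782 over the alternatives). Cx3cr1, the fractalkine receptor of monocytes, read -2.93, -2.25 and -2.83 on day 1 and -5.79, -4.23 and -5.32 on day 2, a difference of -2.43 (SE 0.49, adjusted p = 0.0398 by limma, 0.0119 to 0.182 over the alternatives). A second Cx3cr1 probe, well above background on 4 arrays, had means of -5.68 on day 1 and -6.27 on day 2. Without wild type 13 or without knockout 12 no member passed limma's adjusted threshold for day, against 639 and 1047 of all genes. At an unadjusted p under 0.05 by limma there were 4 and 11 of 43 members, against 4853 and 5682 of 20423 genes. Without wild type 11 or without knockout 1 there was 1 member past the adjusted threshold, against 1028 and 1472 genes. Without knockout 11 there were 4, against 2523 genes. Scan day cannot be told apart from whatever else those arrays shared.

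With day as a block, 5 members had an unadjusted p under 0.05 between genotypes, against 2.08% of all genes. These were Cxcl7, Cxcl9, Cxcl4, Ccl19 and Ccl11. Ccl11 had a difference of -0.55 with the block (unadjusted p = 0.0262 by limma, not past the adjusted threshold), against -0.07 without it. Within day 1 its difference was -0.51 and within day 2 it was -0.60.

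**Figure D5:**
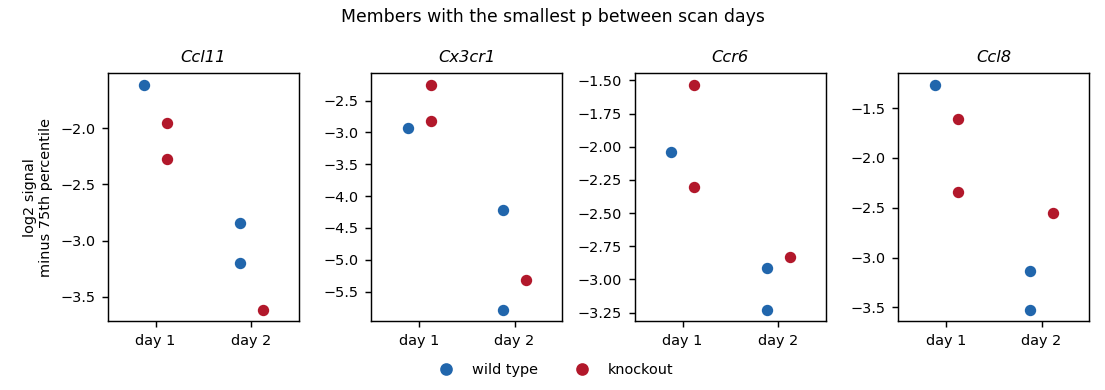
Log2 level, relative to the array's 75th percentile, of the 4 members with the smallest p between scan days, with the arrays grouped by day (wild type in blue, knockout in red). Ccl11 and Cx3cr1 are higher on all 3 day 1 arrays (means -1.95 and -2.67) than on all 3 day 2 arrays (means -3.22 and -5.11).

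Chemokine genes lie in clusters, and every cluster examined held both directions. The CC cluster on chromosome 11 that runs from Ccl2 to Ccl1 (chr11:82118723-82258468, mm7) had 4 of 5 measured members with a lower mean and a median difference of -0.07. The cluster from Ccl5 to Ccl4 (chr11:83595699-83734514) also had 4 of 5 lower, with a median of -0.26, and Ccl5 at its edge was higher. The receptor cluster on chromosome 9 (chr9:123499521-123827194) had 4 of 6 measured receptors lower, among them Ccr2 and Ccr1l1, and Cxcr6 and Ccr9 higher.

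Of the chemokine system genes under other names, 12 were measured, 7 with a higher and 5 with a lower mean in the knockout, but 4 or 5 with a higher mean under the other scalings. By limma 0 of them passed the adjusted threshold and 0 had an unadjusted p under 0.05. Darc (Ackr1), a scavenging receptor of red cells and venules, differed by -0.43 (SE 0.19) with groups that did not overlap. Of 28 measured genes of chemokine receptor signalling, 9 had a higher and 19 a lower mean, with a median difference of -0.11. By limma 0 passed the adjusted threshold and 1, Rgs18, had an unadjusted p under 0.05, against 0.935% of all genes. Adrbk1 (Grk2), a kinase that desensitises the receptors, differed by -0.52 (SE 0.30) and Vav1, an exchange factor of leukocytes, by -0.49 (SE 0.36).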

How the data were processed

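Total RNA of 6 lungs was labelled with Cy3 and hybridised to Agilent arrays, per the labels' protocols. The deposited scanner files hold an intensity per spot, background-subtracted and detrended by Feature Extraction but without scaling between arrays, per the file headers. These headers name version 9.5.1.1, the submitters' processing notes 9.1. The authors' matrix of log2 values (array medians 8.09) served as an alternative, and its scaling is unknown: the sources used here do not give it. The array files place their probes on mm7.

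Each array held 43379 spots for 41174 probes. Outlier spots were left out (48 to 99 an array), spots of a probe averaged and 30 probes dropped. Log2 of the processed signal minus the array's 75th percentile was tested with limma 3.58.1 in R 4.3.3 (lmFit, eBayes, two-sided, Benjamini-Hochberg, no covariates), which was tested on simulated data. Genes carry the array's names; current symbols, promoters and RefSeq accessions came from RefSeq tables, which left 8437 probes unmatched. The number of arrays limits the precision.

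The 12 members with the smallest p were named in full. Up to 2 ligands and receptors of an axis with a member at p under 0.1, and up to 4 genes of a list, were also named. Members and lists were chosen with earlier results of these data known. Alternatives covered scaling, normalization, background, filter, probe choice, scan day, slide, variance model, replicate block and each array left out. Replicate numbers 11 and 12 are shared by both groups, and whether they pair the lungs could not be decided. Figures used matplotlib 3.10.9. Values of 1 member and of some listed markers are not reported here by name.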

Additional observations from a re-analysis of the deposited data

How the results depend on the processing

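No member passed the adjusted threshold under any of 21 alternatives. Of the 12 members named in full, 9 kept their direction in all of theirs. The exceptions were Ccr1l1 (0.73 within day 2), Cxcl12 (-0.036 within day 2) and Cxcr6 (-0.18 within day 1), and the cause was not tested. The ligand median (-0.06) was 0.14 within day 1 and, with the replicate block, 0.15. Leaving out each array in turn gave -0.17 to 0.09. The replicate block takes wild type 13 and knockout 1 out of the genotype difference, since the other group lacks their numbers. The receptor median (0.11) was -0.14 within day 1 and 0.37 within day 2, with 0.07 to 0.21 when each array was left out. The members called between scan days (2) were 1 with quantile normalization, 4 with the authors' values and 1 without the filter on dim probes. When each array was left out they were 0 to 4. Over all genes such calls (2292) were 2901, 3095 and 1889 in these fits, and 639 to 2523 when each array was left out. Within-day fits set a lone array of 1 genotype against a pair, and their p assumes that it varies like the others. Members at an unadjusted p under 0.05 (4) numbered 20 within day 2, 9 with slide as a fixed block, 7 with slide as a random block, 1 within day 1 and 2 with median scaling. Over all genes that count (191) was 3896 within day 2, 921 with slide as a fixed block, 731 with slide as a random block, 453 within day 1, 425 with scan day as a block and 628 with the replicate block, and 1486 without wild type 13. Slide 2 held only knockout 11, so the fixed slide block takes that array out of the genotype difference. Leaving out knockout 11 with no block gave 7 members at an unadjusted p under 0.05 by limma, against 294 genes. Whether the shared numbers pair the lungs could not be decided. Deviations from the group means correlated at -0.25 for number 11 and 0.42 for number 12 across 20423 genes, which are not independent. The arrays numbered 11 differed in scan day and slide, and those numbered 12 shared both. Pairing therefore cannot be told apart from scan day and slide in these correlations. With the replicate block, 4 members had an unadjusted p under 0.05 by limma. Between days the median of all genes was 0.04, and 0.34 with median scaling. Ccr1l1, Cxcl2 and Cxcl5 were near background on some arrays, which limits their values.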
